A study of Mus musculus with 17 samples.

Results

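The genotype difference in the late response to interleukin-6 (IL-6) was examined in mouse macrophages. It is the change from unstimulated to 400 min in KO cells minus the same change in WT cells, on the log2 scale, and it is called the interaction below. A positive interaction means that the KO change lay above the WT change, either because KO cells rose more or because WT cells fell. It was formed from 11 of the 17 arrays of the series, chosen by their titles. These were 2 arrays of unstimulated WT cells (WT 0 min), 3 of WT cells after 400 min (WT 400 min), 3 of unstimulated KO cells (KO 0 min) and 3 of KO cells after 400 min (KO 400 min). The other 6 arrays, of both genotypes after 100 min, helped to estimate the spread. IL-6 was given at 10 ng/ml.

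WT stands for SOCS3+/+ and KO for SOCS3-/-. All cells were bone marrow-derived macrophages, and their total RNA was measured. Per the labels, mice were first reconstituted with fetal liver cells of embryos of either genotype, and the macrophages were then grown from donor-derived marrow cells. The recipients' irradiation is mentioned in 1 label only. Recipient strain, age and the means by which donor cells were told from host cells were not given in the sources used here. Replicates are numbered in the labels, with no word on whether they are separate mice, cultures or extractions, so the p-values cover the spread among these arrays alone, and that spread may be technical.

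SOCS3, the suppressor of cytokine signalling 3, is made in response to IL-6 and binds the receptor subunit gp130, where it limits further signalling. The IL-6 receptor and gp130 activate JAK kinases, which phosphorylate mainly the transcription factor STAT3. Guanylate-binding proteins, immunity-related GTPases, Irf1 and antigen-presentation genes are known in macrophages as genes that interferons induce. The interaction asks for each gene whether its late change after IL-6 differs between cells with and without this inhibitor.

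Of 18 macrophage markers, 16 had median normalized intensities over the 17 arrays between percentiles 86.7 and 99.8 of all probe sets, each at its brightest probe set. Among them Adgre1, Cd68, Csf1r and Lyz2 lay at 97.6 or above, while Cx3cr1 lay at 63.8 and Fcgr3 at 45. No probe set differed between unstimulated KO and WT cells by limma at an adjusted p under 0.05 (0% of 9871), and 591 did at an unadjusted p under 0.05. The Y-linked gene Eif2s3y read 374 to 769 on the 5 WT arrays of the comparison and 7.67 to 112 on the 6 KO arrays, so genotype and the sex of the donor cells cannot be told apart. Socs3 itself read 115 and 54.9 in unstimulated WT cells and 2400, 2036 and 2117 after 400 min. In KO cells it read 20.6, 23.6 and 16.5 unstimulated, then 48.6, 78.5 and 903 after 400 min. The last value belongs to the array labelled KO 400 min replicate 3, which goes against its genotype label in part, so results are also given without it or without all replicate 3 arrays. Unstimulated WT has no replicate 3, and the interaction therefore has no estimate within replicate 3.

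Genes that interferons induce made up many of the positive differences of smallest p. Gbp2, Gbp3, Irf1, Ch25h, Tap1 and the immunity-related GTPase Ifi47 rose in KO cells, while their WT changes at 400 min lay between -0.56 for Ifi47 and 1.08 for Gbp2 on the log2 scale and were not called. At 100 min WT levels of several had been higher, by 2.19 for Gbp3, 1.98 for Gbp2 and 1.31 for Ch25h, also uncalled. The strong late rise of Il4ra, in contrast, was seen in both genotypes, to higher values in KO cells. Its interaction of 0.78 had a 95% interval of -0.35 to 1.91, so a difference in size was not settled. No interaction passed an adjusted p of 0.05 over the whole table in limma (0% of 9871 probe sets). At an unadjusted p under 0.05, 531 probe sets were found (5.38%), 278 with a positive interaction (2.82%) and 253 with a negative one (2.56%). The median standard error of the interaction was 0.64, against 0.42 for the KO response and 0.47 for the WT response.

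Promoters are shown first for Gbp2 and Gbp3, the named genes with the smallest p among positive interactions, beside Tap1, next in that order, and Rabgap1l, which had the smallest p among negative ones. Each is the 250 bases before the gene's start in RefSeq (GRCm38.p6), read 5′ to 3′ on the gene's strand. Capitals mark matches to the core of the interferon-stimulated response element, searched on both strands. Gbp2 lies at chr3:142620413-142620662 on the plus strand, Gbp3 at chr3:142559794-142560043 on the plus strand, Tap1 at chr17:34187306-34187555 on the plus strand and Rabgap1l at chr1:160792939-160793188 on the minus strand.
Gbp2: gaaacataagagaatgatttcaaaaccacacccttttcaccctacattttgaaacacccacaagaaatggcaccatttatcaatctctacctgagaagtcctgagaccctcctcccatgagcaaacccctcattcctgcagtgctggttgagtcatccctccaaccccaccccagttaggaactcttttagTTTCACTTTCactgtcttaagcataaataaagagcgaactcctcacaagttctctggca
Gbp3: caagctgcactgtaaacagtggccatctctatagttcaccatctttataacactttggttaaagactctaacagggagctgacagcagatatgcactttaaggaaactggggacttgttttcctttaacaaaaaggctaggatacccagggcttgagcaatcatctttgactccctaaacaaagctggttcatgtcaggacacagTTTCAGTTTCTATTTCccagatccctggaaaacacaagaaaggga
Tap1: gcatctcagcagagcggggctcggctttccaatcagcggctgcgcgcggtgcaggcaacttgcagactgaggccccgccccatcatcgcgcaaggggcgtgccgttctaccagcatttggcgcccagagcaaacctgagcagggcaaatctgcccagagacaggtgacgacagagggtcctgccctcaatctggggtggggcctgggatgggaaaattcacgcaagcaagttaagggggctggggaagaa
Rabgap1l: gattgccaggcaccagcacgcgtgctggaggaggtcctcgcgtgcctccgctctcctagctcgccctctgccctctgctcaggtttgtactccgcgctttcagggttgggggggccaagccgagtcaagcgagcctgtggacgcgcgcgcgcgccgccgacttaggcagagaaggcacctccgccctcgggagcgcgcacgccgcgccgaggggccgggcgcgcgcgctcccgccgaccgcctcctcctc

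Gbp2 held 1 such match, which begins 59 bases before the start, and Gbp3 held 2 that overlap. The windows of Tap1 and Rabgap1l held none, nor did any of the 4 hold the palindromic STAT site searched as TTCNNNGAA, which is its own reverse complement. Over all 32851 promoters of the table, 2.98% held the interferon core and 7.02% the STAT site. Of the 10 named genes with the smallest p and a positive interaction, 9 had an entry: the interferon core was found in 2 (Gbp2, Gbp3) and the STAT site in 2 others (Plcb1, Irf1). Of the 9 of 10 negative genes with an entry, 0 held either. A match describes the letters of the window and no more.

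The guanylate-binding proteins are interferon-induced GTPases that act on vacuoles of intracellular pathogens. Gbp2 read 404 and 331 in unstimulated WT cells and 893, 947 and 546 after 400 min. KO cells went from 378, 305 and 343 to 8024, 7891 and 10522. The KO 400 min arrays thus lay far above all others, while the unstimulated groups overlapped. Gbp2 rose in KO cells by 4.68 on the log2 scale (SE 0.44, limma adjusted p = 0.000143), against a WT change of 1.08 (SE 0.49, adjusted p = 0.786). Its interaction was 3.60 (SE 0.66, 95% interval 2.18 to 5.02, adjusted p = 0.181).

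Gbp3 had a WT response of 0.02 at 400 min. WT cells read 364 and 302 unstimulated, then 2550, 1776 and 762 after 100 min and 410, 218 and 419 after 400 min. KO cells read 232, 248 and 297 unstimulated and 3408, 4220 and 2550 after 400 min. The interaction of Gbp3 was 3.67 (SE 0.68, limma adjusted p = 0.181). For Gbp7 it was 2.82 (SE 0.72, adjusted p = 0.436), with KO 400 min values of 3236, 3020 and 2602 and WT 400 min values of 395, 434 and 575. Gbp2b depended on the replicate: its KO 400 min values were 3010, 2934 and 249, and its unstimulated KO value in replicate 3 was 14.8 against 154 and 140.

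Immunity-related GTPases, which work with the guanylate-binding proteins against vacuolar pathogens, followed. Ifi47 read 662 and 569 in unstimulated WT cells and 479, 651 and 233 after 400 min. In KO cells it went from 392, 317 and 251 to 4295, 4253 and 2555. All KO 400 min values lay above all others of the comparison. The interaction of Ifi47 was 4.07 (SE 0.85, limma adjusted p = 0.242). Irgm2 stood at 2248, 1919 and 2524 on the KO 400 min arrays and at 516 to 968 on the other 8, with an interaction of 2.22 (SE 0.48, adjusted p = 0.257). Igtp gave 2.63 (SE 0.71) and Irgm1 1.96 (SE 0.49).

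The 400 min comparison alone does not show the earlier time. WT cells at 100 min read 3539, 3551 and 792 for Gbp7 and 2594, 3358 and 1401 for Irgm2, above all 5 WT arrays of the other times in both genes, as Gbp3 did. Iigp1 is of the same family as Irgm2. At 400 min its brighter probe set gave an interaction of 4.03 (SE 0.91, limma adjusted p = 0.315) and the other 3.98. At 100 min the same probe sets gave -0.16 and -0.02, because WT cells then stood 4.45 above unstimulated on the first probe set, close to the 4.28 of KO cells. By 400 min the WT change of Iigp1 was 1.13, while that of KO cells was 5.16. The change of its interaction between 100 and 400 min was 4.19 (SE 0.85, adjusted p = 0.357) and was not called.

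Irf1, an interferon-induced transcription factor, and Ch25h, which makes 25-hydroxycholesterol, had WT responses of 0.02 and -0.01. Irf1 read 960 and 913 in unstimulated WT cells, then 1108, 1116 and 689, and in KO cells 586, 903 and 553, then 4667, 4244 and 3788. Ch25h read 163 and 210, then 166, 230 and 162 in WT, and 234, 106 and 164, then 1374, 1271 and 1991 in KO. In both genes the KO 400 min arrays stood apart from the other 8. The interaction was 2.65 (SE 0.53) for Irf1 and 3.25 (SE 0.65) for Ch25h, both at a limma adjusted p of 0.217. These genes already differed at 100 min by 2.28 and 2.82 in that order, both uncalled.

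Tap1, a subunit of the transporter that carries peptides to MHC class I molecules, had the smallest error among these genes. It read 1230 and 1194 in unstimulated WT cells and 977, 946 and 752 after 400 min. KO cells went from 895, 984 and 1268 to 2713, 2623 and 2552. The interaction of Tap1 was 1.79 (SE 0.33, limma adjusted p = 0.181), made of a KO rise of 1.34 (adjusted p = 0.00767) and a WT change of -0.45 (adjusted p = 0.846). A second, dim probe set of Tap1 gave 0.90.

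**Figure D1:**
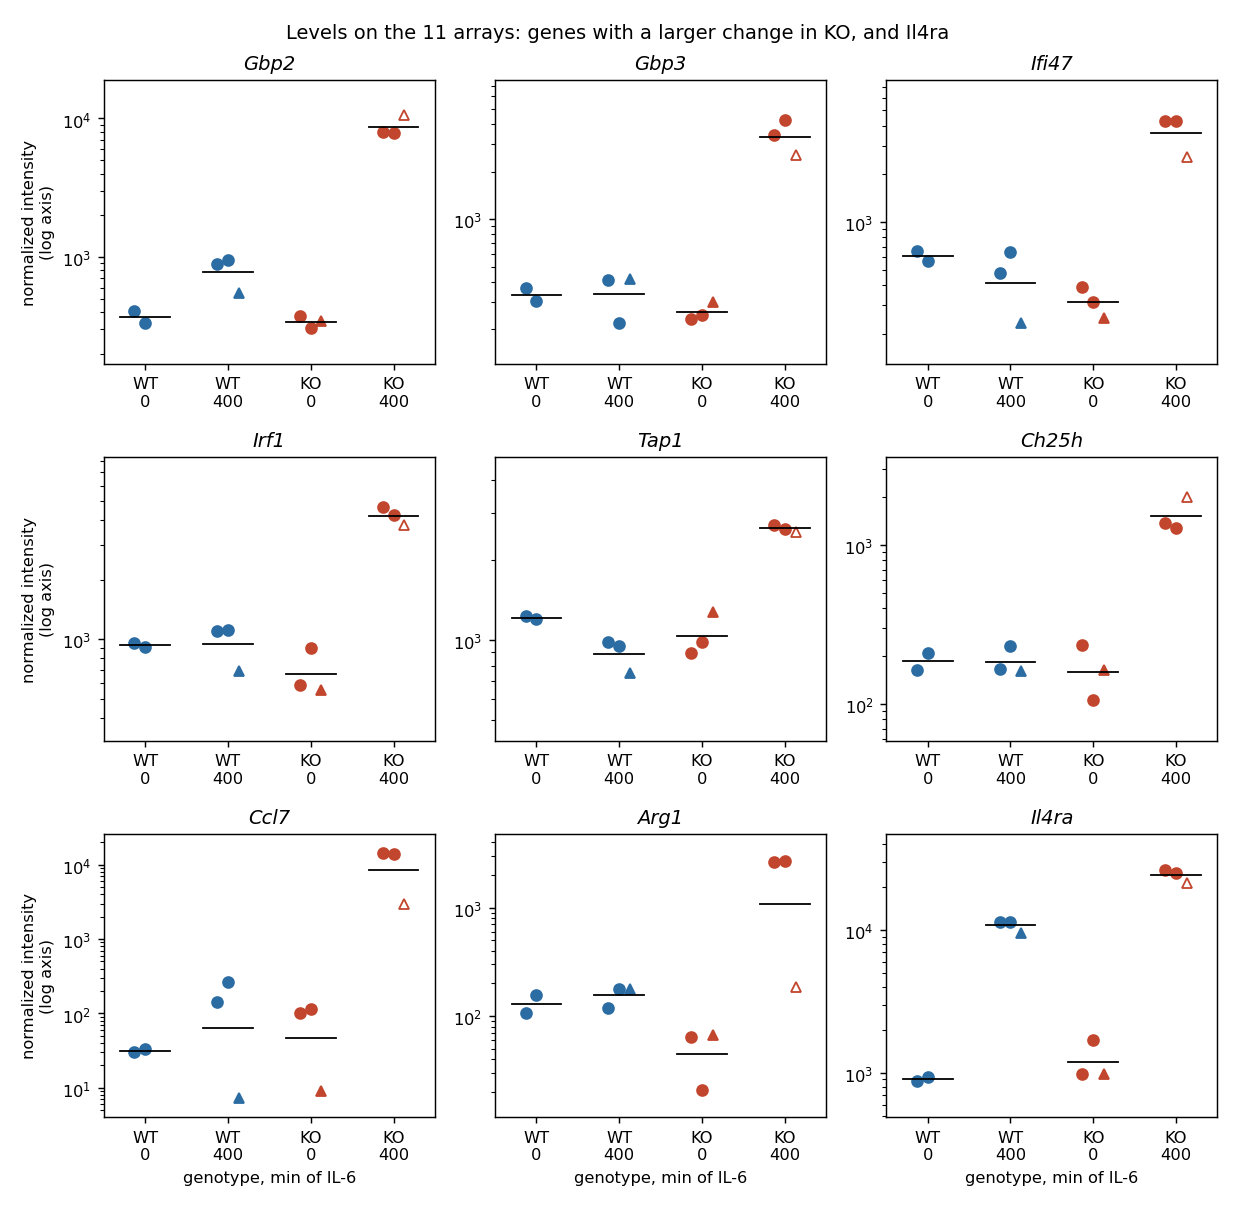
Normalized intensity (log axis) of 9 genes on the 11 arrays, by genotype and minutes of IL-6. Circles are replicates 1 and 2, triangles replicate 3, the open triangle is the array labelled KO 400 min replicate 3 and bars are geometric means; Gbp2, Gbp3, Ifi47, Irf1, Tap1, Ch25h and Ccl7 stand apart on all 3 KO 400 min arrays, Arg1 on replicates 1 and 2, and Il4ra is high after 400 min in both genotypes.

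Over the list of interferon gamma-inducible GTPases, chemokines and regulators, 22 genes were tested. In KO cells 12 rose and 0 fell, where 1.82% of all probe sets were called in the KO response (1.2% rose, 0.628% fell), while in WT cells 0 were called (0.0101% of all probe sets). The median KO response was 1.95 and the median WT response 0.02, beside -0.04 and -0.02 over all 7063 genes tested. The interaction was positive in 20 of the 22, where 3395 of all 7063 genes had a positive one. At an unadjusted p under 0.05, 13 were positive and 0 negative, where 217 and 173 of all 7063 genes were. The median interaction of 2.01 was 1.86 within replicates 1 and 2 and 1.99 without the array labelled KO 400 min replicate 3.

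Members of this list that act as feedback or as signals were included. Socs1, a feedback inhibitor of JAK kinases, read 828, 848 and 852 on the KO 400 min arrays and 100 to 319 on the other 8, with an interaction of 2.01 (SE 0.69, limma adjusted p = 0.718). Cxcl10, an interferon-induced chemokine for T cells, gave 2.01 (SE 0.68), and rose in KO cells by 3.08 (adjusted p = 0.00362). Il18bp, the secreted antagonist of IL-18, gave 2.58 (SE 0.65). Casp1, the protease that matures IL-1 beta, gave 1.33 (SE 0.48).

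Type I interferon-stimulated genes, many of them antiviral effectors, differed in another way. Their median KO response was 0.64 and their median WT response -0.52, so part of the median interaction of 1.17 lay in WT values below the unstimulated level. Of 35 genes tested, 32 had a positive interaction, where 3395 of all 7063 genes did. At an unadjusted p under 0.05, 12 were positive and 0 negative, where 217 and 173 of all 7063 genes were. Ifit2 read 802 and 598 in unstimulated WT cells and 303, 390 and 186 after 400 min, and in KO cells 356, 287 and 249, then 1486, 1414 and 2151. Its interaction was 3.80 (SE 1.06, limma adjusted p = 0.512). Isg15, a ubiquitin-like modifier, gave 2.17 (SE 0.57), and Trim30a gave 2.18 (SE 0.55).

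Usp18, which removes Isg15 from proteins, gave 1.54 with a KO response of only 0.20 and a WT response of -1.34. The list also moved with starting level and replicate. Unstimulated KO cells stood below WT by a median of 0.44 (KO minus WT -0.44), and replicate 3 arrays stood below the others of their group by a median of 0.65 (-0.65). These values are not separate, because unstimulated KO has a replicate 3 array and unstimulated WT has none. Within replicates 1 and 2 the median response of this list was 0.62 in KO and -0.22 in WT cells. The median interaction there was 0.76, and the part of the replicate in it was not tested.

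Antigen-presentation genes were taken as separate lists by class, and the classes were not tested against each other. Among 11 genes of peptide transport, the immunoproteasome and MHC class I, 3 rose in KO cells (97 of all 7063 genes did) and 0 in WT cells. A positive interaction was found in 10 (3395 of all 7063 genes), with a median of 0.43. The 3 that rose were Tap1 and the immunoproteasome subunits Psmb9, at 1.06 (SE 0.32), and Psmb10, at 1.59 (SE 0.57). Of 13 MHC class II and costimulatory genes 0 were called in either genotype by limma, and 0 had an interaction at an unadjusted p under 0.05, yet their median interaction was 0.47. Their regulator Ciita gave 0.95 (SE 0.81).

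The monocyte chemoattractants had interactions of 3.37 (Ccl8) to 5.47 (Ccl7), with wide errors. Ccl7 read 30.2 and 32.9 in unstimulated WT cells and 143, 262 and 7.24 after 400 min. KO cells went from 100, 116 and 9.13 to 14575, 13737 and 2930. The replicate 3 values were the lowest of their group in all 3 groups that have one, yet the KO 400 min arrays stood above all others of the comparison. The values of 7.24 and 9.13 lie below the floor of 22.01. The interaction of Ccl7 was 5.47 (SE 1.57, limma adjusted p = 0.518) over all arrays and 4.42 (adjusted p = 0.0173) within replicates 1 and 2.

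Ccl2 read 236 and 153, then 595, 681 and 164 in WT cells, and 445, 352 and 368, then 14808, 16442 and 3910 in KO cells, which gave 3.58 (SE 1.35). Ccl12 gave 3.90 (SE 1.03), and its KO 400 min values of 1238, 1109 and 925 stood above the 16.9 to 183 of the other 8 arrays. Ccl8 gave 3.37 (SE 1.21). Ccl4, a macrophage inflammatory protein that draws lymphocytes and other cells, gave a smaller 1.66 (SE 0.48). Of 13 CC chemokines tested, 5 rose in KO cells (1.2% of all probe sets did) and 0 in WT cells, and 6 had a positive interaction at an unadjusted p under 0.05 (2.82% of all).

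Arg1, the arginase that competes with nitric oxide synthase for arginine, was high on only part of the KO 400 min arrays. WT cells read 108 and 158, then 119, 177 and 179. KO cells read 63.8, 21.0 and 67.0, then 2645, 2683 and 184. The array labelled KO 400 min replicate 3 thus lay beside the highest WT value of 179. The interaction of Arg1 was 4.33 (SE 1.25, limma adjusted p = 0.518) over all arrays and 5.99 within replicates 1 and 2 (adjusted p = 0.0278). Of the 18 genes of arginine use and alternative activation, 16 had a positive interaction, where 3395 of all 7063 genes did. Their median of 0.66 was 0.19 within replicates 1 and 2.

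Within replicates 1 and 2, 11 interactions were called (0.111% of 9871), all positive, with limma and a Benjamini-Hochberg adjustment over the same probe sets. These are Gbp2, Gbp2b, Gbp3, Gbp7, Ifi47, Ifit2, Ccl2, Ccl7, Arg1, Chrne and the probe set 102906_at, which the annotation gives to several genes. They were looked at after their values were seen. Probe set 102906_at had an interaction of 5.20 (SE 0.88, adjusted p = 0.181) over all arrays and 4.55 (adjusted p = 0.00343) within replicates 1 and 2. It read 2343, 2088 and 2128 on the KO 400 min arrays and 33.2 to 149 on the other 8. Without the array labelled KO 400 min replicate 3 alone, 0 interactions were called and 636 had an unadjusted p under 0.05 (6.44%).

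Some positive interactions lay partly in the starting level of WT cells. Spib, an Ets-family transcription factor also used by B cells and plasmacytoid dendritic cells, read 244 and 668 in unstimulated WT cells and 76.4, 77.8 and 84.3 after 400 min. In KO cells it read 77.1, 104 and 71.3, then 154, 154 and 101. Its interaction of 3.04 (SE 0.57, limma adjusted p = 0.181) therefore held a WT change of -2.34 and a KO change of 0.69. The summed intensity of 14 B cell markers was 7183 to 8629 in unstimulated WT cells, 3691 to 5328 in WT cells at 400 min, 2877 to 5379 in unstimulated KO cells and 2977 to 3280 in KO cells at 400 min. Among them the immunoglobulin gene Ighm at its brightest probe set read 5135 and 5860 in unstimulated WT cells and 2970, 3090 and 1352 after 400 min. In KO cells Ighm read 3301, 3085 and 749, then 957, 901 and 944. Over the 13 B cell genes tested, the median interaction was 0.31, with 9 positive and 4 negative (3395 and 3668 of all 7063 genes). The part of these markers in the Spib values was not tested. In bulk RNA, fewer cells of a type and less RNA per cell cannot be told apart.

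Plcb1, a phospholipase C, read 179 and 185 in unstimulated WT cells and 27.0 to 55.5 in WT after 400 min. KO cells read 32.5, 44.9 and 73.5, then 139, 163 and 71.1. Its interaction of 3.59 (SE 0.71) held a WT change of -2.29 and a KO change of 1.30, neither called. Islr gave 3.84 (SE 0.78) with WT values of 140 and 227, then 74.5, 35.4 and 31.6. In KO cells Islr read 116, 44.2 and 27.3, then 186, 221 and 148. Its changes were thus of like size and opposite direction by estimate, -2.03 in WT and 1.81 in KO cells, and uncalled. Chrne, a subunit of the muscle acetylcholine receptor, was called within replicates 1 and 2. Of the 11 called there, it is the only 1 whose KO response over all arrays was near 0, at 0.29. Its WT response was -2.24. In KO cells Chrne went from 80.4 and 105 to 144 and 115 in replicates 1 and 2, and from 31 to 29 in replicate 3.

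Negative interactions of small p lay in dim genes. The 10 with the smallest p had a median peak of 204 over the 11 arrays, where the array median is 190, and 9 of them stayed below 300 on every array. Among the 10 positive genes, 2 did. Rabgap1l, which regulates Rab GTPases, read 32.3 and 51.1 in unstimulated WT cells and 121, 165 and 136 after 400 min, and in KO cells 113, 158 and 168, then 24.1, 66.1 and 44.5. WT and KO values thus crossed over. Its interaction was -3.58 (SE 0.53, limma adjusted p = 0.10), the smallest p of the table.

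Slc46a1, the proton-coupled folate transporter, read 19.1, 28.2 and 27.9 on the KO 400 min arrays and 51.4 to 202 on the other 8. Its interaction was -3.62 (SE 0.85, limma adjusted p = 0.361). Srsf10, a splicing factor, read 30.7, 21.2 and 24.9 on the KO 400 min arrays and 94.4 to 175 on the other 8. Its interaction was -2.79 (SE 0.67). On the KO 100 min arrays Srsf10 read 36.2, 48.6 and 174. Slc46a1 and Srsf10 fell in KO cells at 400 min, by 2.81 and 2.58 on the log2 scale (limma adjusted p = 0.0227 and 0.00951). C030006K11Rik fell by 1.88 and Smim4 by 2.04 in KO cells.

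Apoa5, Uck1 and Sergef had KO changes of -2.70, -1.62 and -1.96 that were not called. Apoa5 read 14.9, 15.8 and 12.8 on the KO 400 min arrays, all below the floor of 22.01, so the size of its change depends on the floor. Mrpl14, a mitochondrial ribosomal protein, and Ankrd49 had KO responses of -0.37 and -0.02 and WT responses of 2.00 and 1.86. In Mrpl14 the unstimulated WT values were 45.5 and 7.29, the second of which lies below the floor of 22.01. On 6 of the 10 negative genes, the unstimulated WT replicate 2 array was the lowest of the 5 WT arrays. With 2 unstimulated WT arrays, that array carries much weight in such values.

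**Figure D2:**
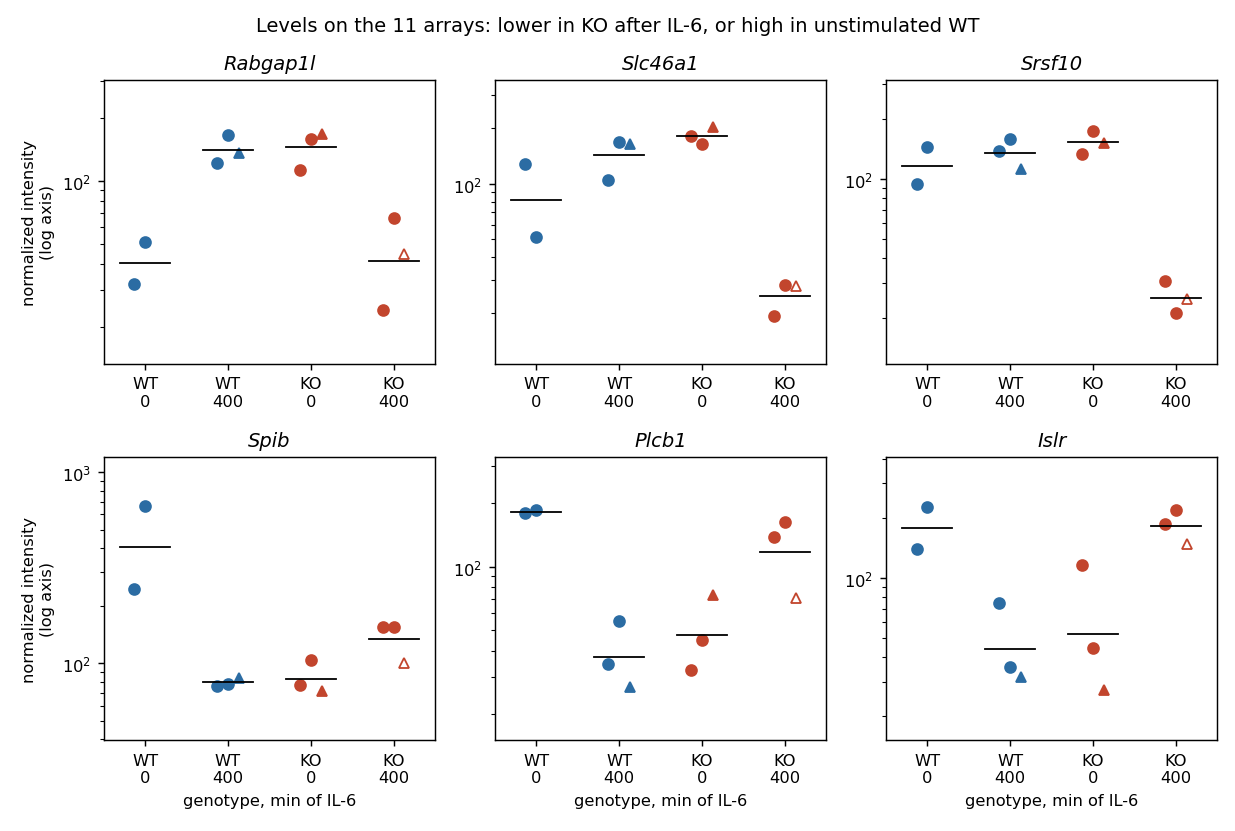
Normalized intensity (log axis) of 6 genes on the 11 arrays, drawn as in the plot of 9 genes (circles replicates 1 and 2, triangles replicate 3, open triangle the array labelled KO 400 min replicate 3, bars geometric means). Slc46a1 and Srsf10 are low on all 3 KO 400 min arrays, Rabgap1l crosses over, Spib is highest in unstimulated WT cells, and Plcb1 and Islr are high both there and in part or all of the KO 400 min arrays.

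To describe the difference in genes not ranked by it, the shared response was used, a mean of the KO and WT responses weighted by their precision. Under equal spread its error is uncorrelated with that of the interaction. A gene that changes in KO cells alone can still be called in it. Gbp3 and Ch25h were, with WT responses of 0.02 and -0.01. The shared response was called for 189 probe sets (1.91%): 124 rose (1.26%) and 65 fell (0.658%). Of the 124 that rose, 102 (82.3%) had a positive interaction, against 48.2% of all probe sets tested. Of the 65 that fell, 60 (92.3%) had a negative interaction, against 51.8% of all. In most of the 189, the late change was larger in KO than in WT cells by estimate. Genes that entered through KO cells alone have an interaction of the same sign as their change and so add to these shares. The KO response also had more weight in the mean, and it was called for 180 probe sets, against 1 for the WT response. The shares therefore describe the called genes and are no separate evidence, and how much such genes add was not tested. The median response was 1.75 in KO and 0.99 in WT among those that rose, and -1.24 and -0.68 among those that fell. Within replicates 1 and 2, the counts were 98 of 124 and 59 of 65. The number called rests on single arrays: it was 85 and 104 without unstimulated KO replicates 1 and 2, and 101 and 96 without KO 400 min replicates 1 and 2, in that order.

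The size of the difference was resolved for few of them. The 95% interval of the interaction lay wholly beyond a 2-fold difference for 73 of all 9871 probe sets tested. It lay wholly within 2-fold for 1140 of all (11.5%) and was unresolved for 8658. Among the 124 that rose, 14 lay beyond 2-fold, 16 lay within (12.9%) and 94 were unresolved. The 14 were 102906_at, Gbp2, Gbp3, Gbp7, Irf1, Ch25h, Ccl7, Ccl12, Arg1, Selp and both probe sets each of Iigp1 and Ndrg1. Among the 65 that fell, 1 lay beyond 2-fold, 5 lay within (7.69%) and 59 were unresolved. The 1 was Atp7b, a copper transporter, at 2.48, with WT values of 280 and 404, then 45.9, 57.8 and 71.0, and KO values of 180, 100 and 215, then 215, 153 and 101. A p that misses the threshold does not show that the genotypes respond alike.

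Ndrg1, a stress-induced gene, rose in KO cells at both probe sets. At 96596_at it read 1092 and 1139, then 2755, 2731 and 2521 in WT cells, and 1220, 1522 and 907, then 11502, 11502 and 14177 in KO cells. Its interaction was 2.12 (SE 0.42, limma adjusted p = 0.217), and 2.08 at the other probe set. Selp, the adhesion molecule P-selectin, read 311, 440 and 328 on the KO 400 min arrays and 19.1 to 60.2 on the other 8, with an interaction of 3.37 (SE 0.84).

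Responses bounded within 2-fold were alike in both genotypes to that precision, though such intervals were about as common over all probe sets. Tgfbi, a secreted matrix protein of macrophages, read 12303 and 10329, then 20610, 19940 and 27389 in WT cells, and 11552, 11826 and 10886, then 23364, 23184 and 22295 in KO cells. Its interaction was 0.02 (95% interval -0.58 to 0.62). For the protease cathepsin C, Ctsc, it was -0.16 (-0.91 to 0.59) at its brightest probe set. Dimmer probe sets of Ctsc spread more: at 101020_at KO cells read 196, 136 and 949 unstimulated, then 214, 292 and 1880. For Ptger4, a prostaglandin E2 receptor, it was 0.03 (-0.70 to 0.76), and for the kinesin subunit Kif3b 0.10 (-0.67 to 0.87). Slc12a7, Midn, Vmp1, Klf3, Timm10b, Atp7a, Krtcap2, Manf, Htt and Arnt also rose with a bounded interaction. Rtn4, Ctnna1, Capn2, Lrmp and Adk fell with one. The other 2 of the bounded were unnamed.

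Genes with the largest shared response were often unresolved. Il4ra, the chain shared by the IL-4 and IL-13 receptors, read 880 and 938, then 11502, 11502 and 9603 in WT cells, and 981, 1713 and 989, then 26429, 25018 and 21531 in KO cells. It rose by 3.58 in WT cells (limma adjusted p = 0.00339), the only WT response called (0 were without unstimulated WT replicate 2), and by 4.35 in KO cells. Its interaction was 0.78 (SE 0.52, 95% interval -0.35 to 1.91). A second, dim probe set (161192_at) gave -1.20. The groups of both genotypes at 400 min lay above all unstimulated values, and KO above WT.

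Fcgr2b, the inhibitory Fc receptor, read 138 and 146, then 905, 1575 and 4097 in WT cells, and 240, 199 and 658, then 8061, 7863 and 13819 in KO cells. Its interaction was 1.25 (SE 0.76). Csf2rb, the common beta chain of the GM-CSF, IL-3 and IL-5 receptors, gave -0.66 (95% interval -2.83 to 1.51). Gja1, the gap junction protein connexin 43, gave 0.48 (-1.43 to 2.38). Fgl2, a fibrinogen-like protein of activated macrophages, gave 3.07 (SE 1.11), with KO 400 min values of 5827, 5843 and 3236 and WT 400 min values of 1765, 1927 and 323.

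The largest shared falls were in Pdcd4, Hspa1b, Rell1, Slc6a12, Cuedc1, Hmga2, St3gal5 and Stk10. All 8 had a negative interaction, between -2.48 for Pdcd4 (SE 1.11) and -0.42 for Rell1 (SE 0.52). Pdcd4, an inhibitor of translation, read 1170 and 875, then 286, 485 and 726 in WT cells, and 708, 430 and 772, then 16.8, 13 and 270 in KO cells. Its KO 400 min array of replicate 3 thus stood well above the other 2, which lie below the floor of 22.01. Within replicates 1 and 2 the interaction of Pdcd4 was -3.21 (95% interval -4.55 to -1.87), uncalled. St3gal5, a ganglioside synthase, gave -1.16 (95% interval -2.17 to -0.15).

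**Figure D3:**
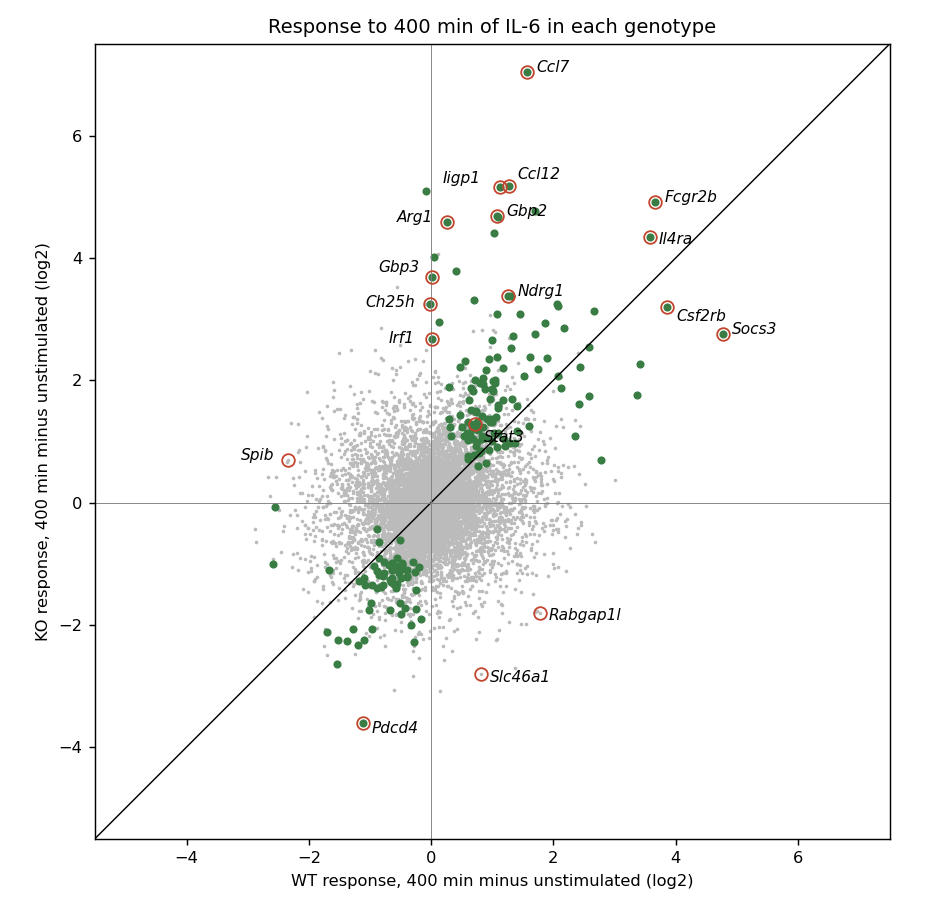
WT response (x) against KO response (y) to 400 min of IL-6, log2, for 9871 probe sets (grey) and the 189 with a called shared response (green), with the line of equal response. Circled genes above the line, such as Ccl7 (7.04 against 1.57) and Gbp2 (4.68 against 1.08), changed more in KO cells by estimate, and Il4ra (4.35 against 3.58) lies near the line.

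Genes of the pathway itself had interactions of either sign. Of 31 JAK-STAT and gp130 genes tested, 5 rose in KO cells (97 of all 7063 genes did) and 1 in WT cells (1 of all 7063). The interaction was positive in 17 and negative in 14 (3395 and 3668 of all 7063), with a median of 0.13. At an unadjusted p under 0.05 there was 1 of each sign (5.38% of all probe sets were found). Stat3 gave 0.46 (SE 0.37) and 0.57 (SE 0.41) at its 2 probe sets, and rose in KO cells at both (limma adjusted p = 0.0127 and 0.0304). Il6st, which encodes gp130, gave 0.83 (SE 0.68) and 0.74 (SE 0.50). Il6ra, the IL-6 receptor, gave -2.07 (SE 0.80), but its unstimulated WT values of 274 and 41.2 differed more than any pair of KO values (299 to 564). Gab1, an adaptor of gp130 signalling, gave 1.31 (SE 0.53), and Il13ra1, a receptor chain for IL-13, 1.14 (SE 0.64).

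Of 39 genes known as targets of STAT3, IL-6 or IL-10, 11 rose in KO cells and 1 in WT cells, where 97 and 1 of all 7063 genes did. Their median response was 0.91 in KO and 0.47 in WT cells, and the median interaction 0.46. At an unadjusted p under 0.05, 6 were positive and 1 negative (217 and 173 of all 7063). Pim1, a kinase induced by STAT3 and STAT5, went from 1105 and 1364 to 2424, 2702 and 2499 in WT cells, and from 1464, 1247 and 1220 to 5112, 4636 and 6103 in KO cells. Its interaction was 0.96 (SE 0.33, limma adjusted p = 0.716). Timp1, an inhibitor of matrix metalloproteinases, gave 2.25 (SE 0.53), with KO 400 min values of 2323, 3464 and 2451 above the 487 to 1251 of the other 8 arrays.

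Of 14 SOCS and other feedback genes tested, 1 rose in KO cells (97 of all 7063 genes did), and the median interaction was 0.11. Socs3 gave -2.03 (SE 1.33) and -1.59 (SE 1.17) at its 2 probe sets, and -3.36 within replicates 1 and 2 at the first. Whether its probes lie in the deleted part was not analysed here.

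Of 32 NF-kappaB inflammatory genes, 7 rose in KO cells (1.2% of all probe sets did) and 0 in WT cells, and 7 had a positive interaction at an unadjusted p under 0.05 (2.82% of all). Their median interaction was 0.65. They include Ccl2, Ccl4, Ccl7, Ccl12 and Selp, already described. Of 30 immediate early genes, 4 rose and 2 fell in KO cells (97 and 53 of all 7063 genes did), and the median interaction was -0.04. Jun, a subunit of the transcription factor AP-1, gave 2.36 (SE 0.62) and Fos, its partner, -1.60 (SE 0.70). Myc, a growth regulator, gave 1.75 (SE 0.68), but was dim. It read 4.95 and 5.58, then 69.9, 2.46 and 18.4 in WT cells, and 28.5, 7.61 and 15.2, then 138, 120 and 100 in KO cells. Values below 22.01 were raised to that floor. Thus members of this list went opposite ways by estimate.

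Among 18 acute phase and complement genes, only Fgl2 rose in KO cells (97 of all 7063 genes did) and 0 were called in WT cells. C5ar1, the receptor of complement fragment C5a, gave -1.11 (SE 0.41), and Lcn2, an iron-sequestering protein, 1.14 (SE 0.48). In the alternative activation list, Fn1, fibronectin, gave -2.81 (SE 0.79) and the mannose receptor Mrc1 3.33 (SE 1.49). Mrc1 read 6663, 6368 and 1948 on the KO 400 min arrays and 2298, 2656 and 242 on the WT 400 min arrays, so that replicate 3 was lowest in both.

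Cell cycle genes had the opposite sign. Of 43 tested, 39 had a negative interaction (3668 of all 7063 genes did), with a median of -0.58. However, 0 were called in either response by limma, and 0 had an interaction at an unadjusted p under 0.05 (5.38% of all probe sets did). Mcm5, a replicative helicase subunit, gave -1.16 (SE 0.61), Aurkb, a mitotic kinase, -1.10 (SE 0.56) and Gmnn, a licensing inhibitor, -1.20 (SE 0.64). The list moved with replicate and starting level. Replicate 3 arrays stood above the others by a median of 0.75, and unstimulated KO cells above WT by 0.36. These values are not separate, because unstimulated KO has a replicate 3 array and unstimulated WT has none. Within replicates 1 and 2 the median was -0.21, and the part of the replicate in it was not tested.

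Lists meant as a background had medians near 0, with members of either sign. The median interaction was -0.05 over 18 macrophage markers and -0.16 over 31 genes of lysosome and phagocytosis. In these lists, Itgam, an integrin, gave -1.01 (SE 0.58), Npc1, a cholesterol transporter, -0.65 (SE 0.40), and the enzyme Gla -0.58 (SE 0.37). The high-affinity Fc receptor Fcgr1 gave 1.16 (SE 0.56). Over 17 genes near Socs3 on its chromosome, where flanking DNA of the targeted embryos could differ, the median was 0.25. At an unadjusted p under 0.05, 1 had a positive interaction, where 217 of all 7063 genes did. The gene near Socs3, Lgals3bp at 1.18 (SE 0.46), is also in the type I interferon list.

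Of the lists of other cell types, 1 gene was called in the KO response, a fall among the 12 neutrophil and precursor genes tested. Over all 7063 genes, 97 rose and 53 fell in KO cells. The summed intensity of the B cell markers did not overlap between the WT and KO 400 min arrays (3691 to 5328 and 2977 to 3280). Much of that difference lay in Ighm, which read 2970, 3090 and 1352 on these WT arrays and 957, 901 and 944 on the KO arrays. The sums overlapped for neutrophils (2039 to 3281 and 2309 to 3026), for T and NK cells (1931 to 2336 and 1959 to 2173) and for fibroblasts (2749 to 3437 and 2926 to 3217). They also overlapped for the mast cell, erythroid and dendritic cell lists. The part of the B cell markers in the interactions was not tested. No gene of these lists was at the floor on all 17 arrays.

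**Figure D4:**
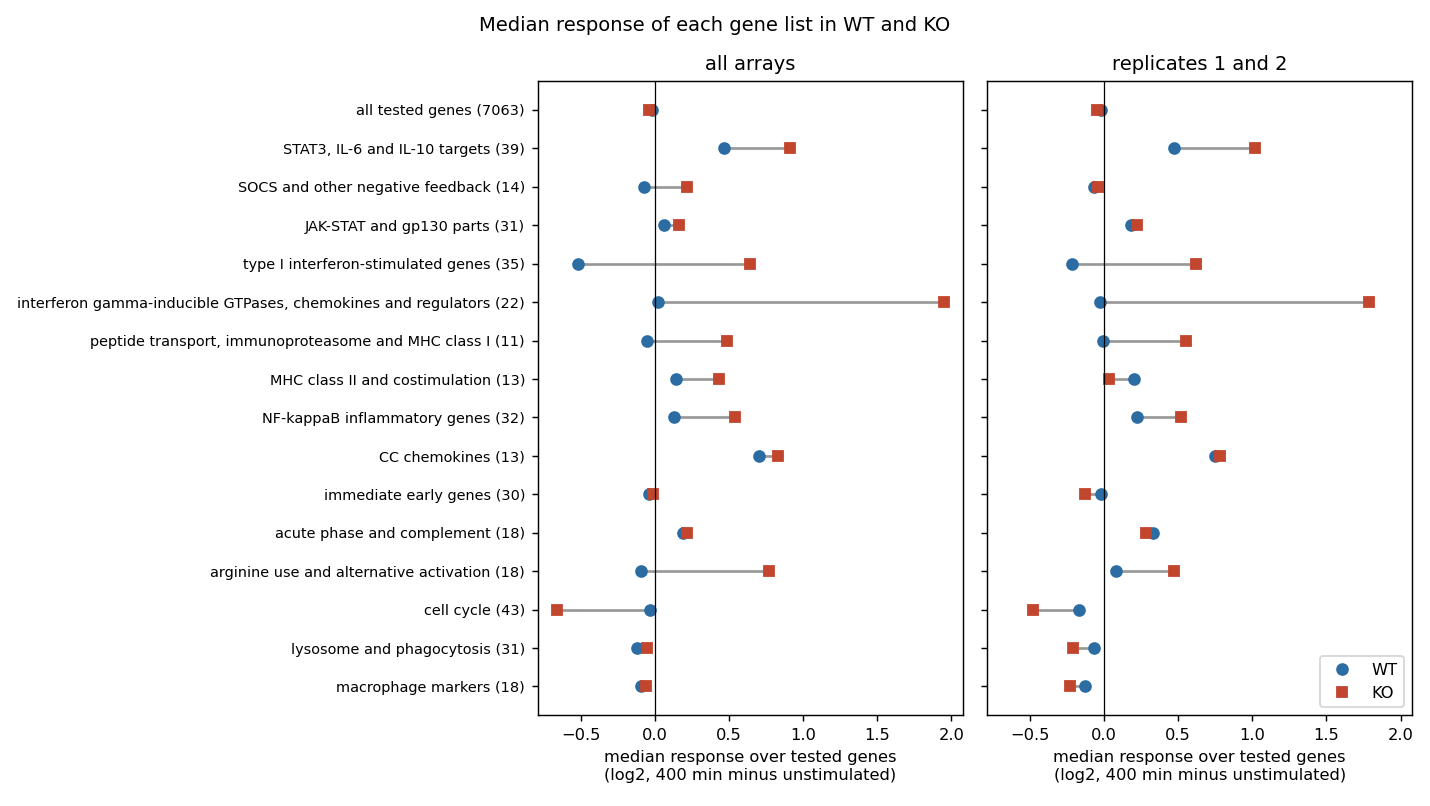
Median response to 400 min of IL-6 in WT (blue circles) and KO (red squares) for each gene list, log2, over all arrays (left) and within replicates 1 and 2 (right), with the number of tested genes in parentheses. The interferon gamma-inducible list separates most (0.02 in WT, 1.95 in KO) and does so in both panels; the type I interferon and cell cycle lists move closer within replicates 1 and 2.

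The earlier time shares the unstimulated arrays and is set beside the late one for its values only. At 100 min, 0 interactions were called by limma (0%) and 361 had an unadjusted p under 0.05 (3.66%). The median over the interferon gamma-inducible list was 0.86 at 100 min and 2.01 at 400 min. Gbp2 stood at 1.33 at 100 min and 3.60 at 400 min, and Gbp3 at 1.02 and 3.67.

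The change of the interaction from 100 to 400 min, which uses none of the unstimulated arrays, was tested after the results were seen. It was called for 2 probe sets (0.0203%), both lower at 400 min, and 409 had an unadjusted p under 0.05 (4.14%). They were Rabgap1l, at -4.06 (SE 0.50, limma adjusted p = 0.00929), and Cd247. For Gbp2 the change was 2.27 (SE 0.62) and for Gbp3 2.65 (SE 0.64), neither called. For Irf1 and Ch25h it was 0.37 (SE 0.50) and 0.44 (SE 0.61).

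KO and WT cells were also compared directly at 400 min, where 36 probe sets were called (0.365%), 31 higher in KO (0.314%) and 5 lower (0.0507%). Gbp2, Gbp3, Tap1, Ch25h, Irf1, Ifi47, Irgm1, Irgm2, Iigp1, Ndrg1, Timp1, Selp, Ccl7, Ccl12, Ccl2, Ccl4, Cxcl10 and Socs1 were among the higher. Srsf10 and C030006K11Rik were among the lower. These 36 share arrays with the interaction and are no separate evidence for it.

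**Figure D5:**
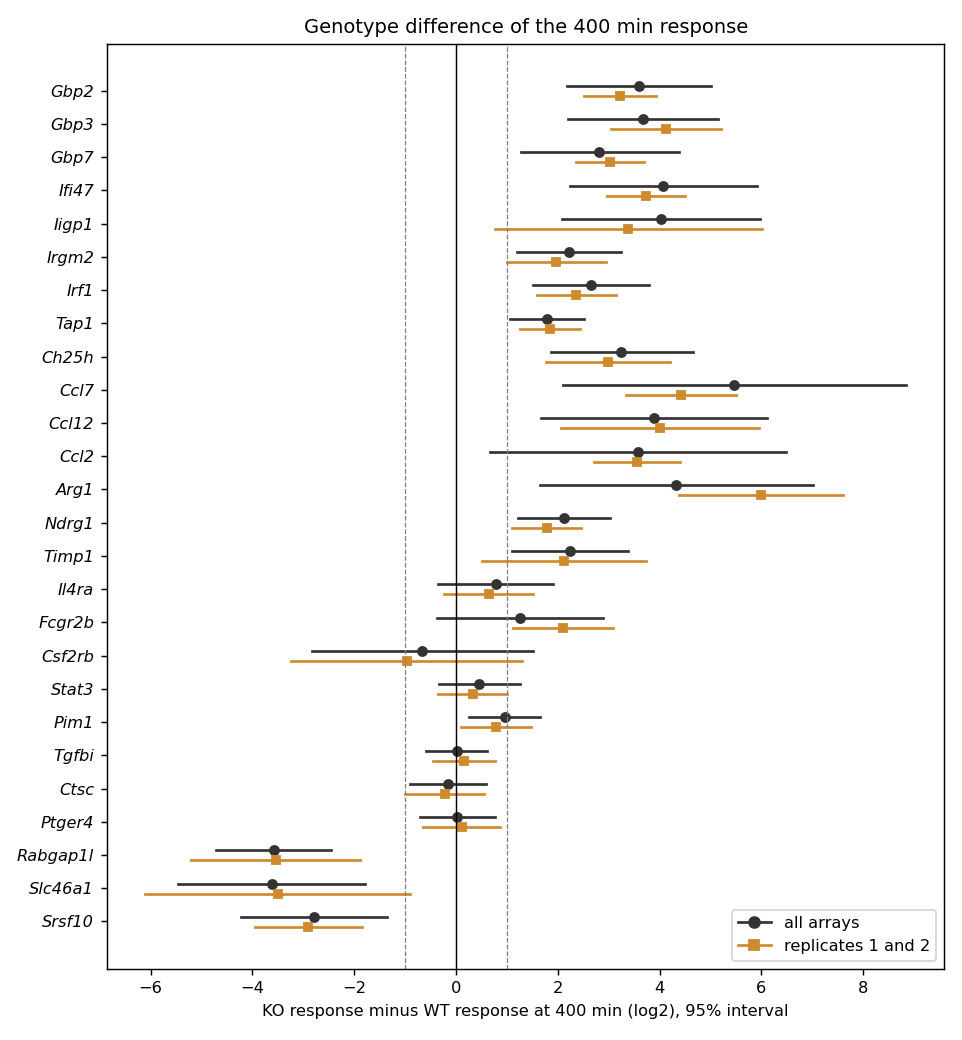
Interaction (KO response minus WT response at 400 min, log2) with its 95% interval for 26 genes, over all arrays (dark circles) and within replicates 1 and 2 (orange squares); dashed lines mark a 2-fold difference. Gbp2, Gbp3, Irf1 and Ch25h lie wholly beyond 2-fold in both, Tgfbi, Ctsc and Ptger4 within 2-fold over all arrays, and Il4ra, Csf2rb and Stat3 cross 0.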

How the data were processed

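The authors deposited linear intensity values of 12488 probe sets, named in the Affymetrix manner, for each array; their software, background correction and scaling: not given in the sources used here. Deposited values ranged from 0.3 to 91970.4 and had no detection calls. Array medians differed by 0.401 on the log2 scale, so values were quantile normalized, floored at percentile 10 of all values (22.01) and log2 transformed; printed levels are before the floor. Probe sets above the 40th percentile on at least 2 arrays were tested (9871, of 7063 genes; 66 control probe sets left out). Limma 3.58.1 in R 4.3.3 fitted 6 group means over 17 arrays, with Benjamini-Hochberg adjustment over all tested probe sets and a threshold of 0.05. The fit was tested on simulated data. The number of arrays limits the precision.

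Named genes were those called or, where fewer than 10 were called in a direction, the 10 of smallest p, plus the 12 largest shared rises, 8 largest shared falls, up to 3 members of smallest p per list, and fixed genes of the pathway; others are described as chosen later or given as parts of counts. A gene entered a list by its brightest probe set. The comparison and the 24 lists were chosen with earlier results of these data known. Symbols come from the platform annotation (10855 probe sets with 1 symbol, 396 with several, 1237 with none). Alternatives were normalization, floor, filter, arrays fitted, replicate block, left-out arrays, array weights and variance prior.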

Additional observations from a re-analysis of the deposited data

How the results depend on the processing

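The direction of the interaction held for 85 named probe sets under each alternative that kept them (the filter at the 60th percentile kept 68), except when 1 array was left out: Gja1 ranged from -0.81 (without unstimulated WT replicate 1) to 1.77 and Slc6a12 from -1.42 to 0.08 (without KO 400 min replicate 2). Counts of calls moved more. Interactions called were 0 in the main analysis, under the deposited scaling, median scaling, log2(value + 32) and the filter at the 60th percentile, 3 with no filter, 5 with only the groups compared, 11 in replicates 1 and 2, 7 with array weights and 9 with a variance trend. Without 1 array they ranged from 0 to 8 (1 without unstimulated WT replicate 1, 1 without KO 400 min replicate 2, 8 without WT 100 min replicate 3). Leaving aside single left-out arrays, Gbp2 and Gbp3 were called under 4 alternatives and the unnamed 102906_at under 5. The replicate number as a block gave 4 interactions, 305 KO, 3 WT and 330 shared calls. The 4 were Ccl7 (4.64, adjusted p = 0.00134), 102906_at (4.82), Ifi47 (3.68) and Rabgap1l (-3.52), the last 3 at 0.0198. The numbers were not taken to pair the samples: deviations of same-numbered arrays correlated at -0.02 to 0.11 in replicate 1 and -0.01 to 0.09 in replicate 2, although at 0.10 to 0.24 in replicate 3, against -0.16 to 0.12 between different numbers. KO responses called were 180, against 276 in replicates 1 and 2, 483 with weights, 307 with a trend and 73 to 229 without 1 array. WT responses called were 1, against 2 with no filter, 2 at the 60th percentile, 2 with the groups compared, 14 in replicates 1 and 2, 4 with weights, 9 with a trend and 0 to 16 without 1 array. Shared responses called were 189, against 124 with median scaling, 123 with the groups compared, 310 in replicates 1 and 2, 396 with weights, 300 with a trend and 85 to 220 without 1 array. At 100 min, 0 to 3 interactions were called without 1 array. Values at the floor understate changes of dim genes, and with no detection calls signal over background is not known per probe set.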
